A study of Mus musculus with 12 samples.

Results

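The comparison described here set the mouse choroid plexus at the embryonic age E12.5, when the tissue has just begun to form from the roof of the brain ventricles, against the same tissue at postnatal day 14 (P14). Its members were all genes with at least 1 TPM in at least 3 of the 6 libraries of these ages, which were 16243 of 52459 genes in the table. TPM, a measure of transcript abundance, is corrected for transcript length and has a fixed total in each library. Both ages had 3 libraries from wild-type B6 mice, whose dissected tissue went into Trizol at once, and RNA-seq libraries were made from total RNA with a KAPA mRNA kit. No treatment, transgene or deletion was involved at these ages. Neither sex, nor ventricle, nor whether embryos were pooled is given in the sources used here, and p-values measure the spread between these specimens. The table also holds birth (P0) and 6 months (A6m), which serve below only to place single genes.

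The choroid plexus is a leaf of blood vessels and loose connective tissue wrapped in a single layer of epithelial cells. The epithelium moves salt and water from blood into the ventricles as cerebrospinal fluid, carries vitamins and hormones across, and secretes carrier proteins, of which transthyretin is the best known. Its cells leave the cell cycle early, and each then grows a tuft of cilia through a program shared with the airway and the ependyma. At E12.5 the epithelium is still being laid down over a mesenchyme full of growing vessels, and at P14 it is a working secretory tissue.

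Markers of the labelled tissue were present in every library. Ttr, the gene of transthyretin, was at 11200, 14128 and 21003 TPM in the E12.5 libraries and at 151576, 164598 and 168699 TPM in the P14 libraries. The potassium channel gene Kcnj13 lay at 112 to 204 TPM at E12.5 and 689 to 701 TPM at P14. Pearson's r across the tested genes, which are not independent replicates, was 0.962 to 0.968 within E12.5, 0.976 to 0.982 within P14 and 0.796 to 0.818 between the ages. E12.5 replicate 1 stood apart through a set of small RNA and ribosomal RNA features, to which Lars2 and some gene models were added by name. The set held 17.3% of its TPM, against 3.27% and 4.45% in its replicates and 1.43% to 1.92% at P14. Xist, the RNA that silences an X chromosome in female cells, was at 139, 0.389 and 89.5 TPM at E12.5 and at most 0.808 TPM at P14, while Ddx3y of the Y chromosome was at 9.26, 54.4 and 50.9 TPM and 80.1 to 93.2 TPM. E12.5 replicates 1 and 3 thus held transcripts of both kinds. Xist thus separated these 2 libraries from all those of P14, and an effect of sex on the comparison was not tested. Leaving out the genes of both sex chromosomes left 1974 genes higher and 9914 lower at P14, of 15682 tested. It leaves the differences of the other genes as they were, so it cannot show an effect of sex on them.

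Most of the transcriptome moved between the ages, and the direction of the bulk of it depended on the scale. As deposited, limma called 12315 genes (75.8% of those tested) at a Benjamini-Hochberg adjusted p under 0.05, 2048 higher at P14 (12.6%) and 10267 lower (63.2%), with a median log2 difference of -0.73. TPM values share a fixed sum, and at P14 the 10 most abundant genes held 42.7% of it, against 19.2% at E12.5. Mitochondrially encoded genes took 28.7% to 32.6% at P14 and 11.2% to 17.7% at E12.5, Ttr 15.2% to 16.9% and 1.12% to 2.1%, and globin genes 0.0775% to 0.0906% and 5.56% to 6.26%. After dividing each library by its median ratio to a reference of all 6 (below, scaling), 5490 genes were higher (33.8%) and 5528 lower (34.0%), together 67.8%, around a median of -0.01. Scaling raised the difference of every tested gene by 0.21 to 0.83. All 2048 genes called higher as deposited were also called higher with scaling, and all 5528 called lower with scaling were also called lower as deposited.

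Below, "rose" and "fell" are used for genes called in that direction on both scales, which were 2048 (12.6% of tested genes) and 5528 (34.0%), together 46.6%. Every count of list members below is to be read beside these shares. A further 861 genes (5.30%) were called lower as deposited and higher with scaling. At least a 2-fold difference on both scales was reached by 1029 genes that rose and 2484 that fell, and at least 16-fold by 38 and 65. Libraries of the ages did not overlap for 78.5% of tested genes as deposited and 72.8% with scaling, so separation of the libraries by itself distinguishes few genes. The filter admitted 1644 genes through E12.5 alone and 261 through P14 alone. Protein-coding genes made up 13423 of the tested genes, of which 1786 rose and 4847 fell, and lincRNA genes 408, of which 47 rose and 133 fell.

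**Figure D1:**
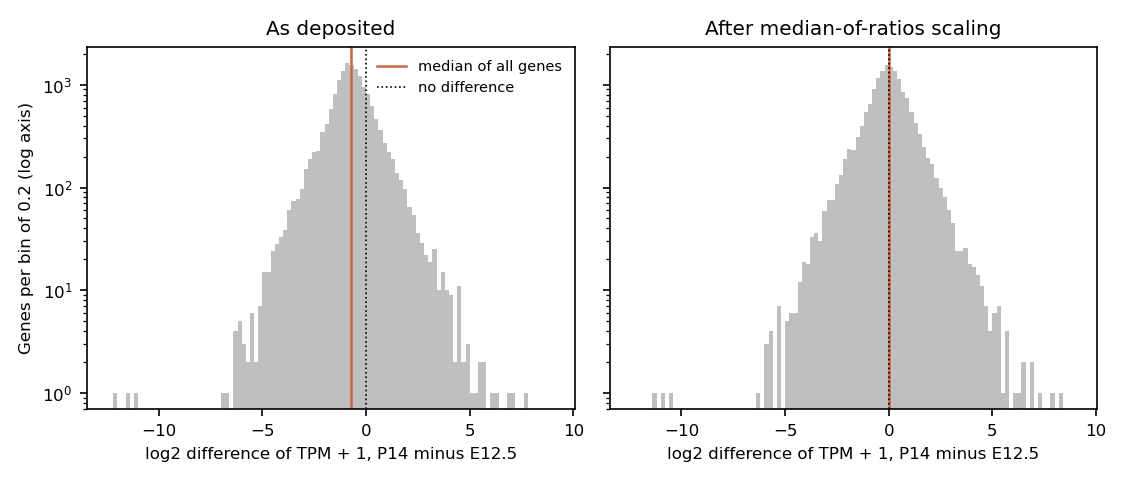
Histograms of the log2 difference of TPM + 1 (P14 minus E12.5, bins of 0.2, gene number on a log axis) for the 16243 tested genes, as deposited (left) and after median-of-ratios scaling (right). The orange line marks the median of all genes, -0.73 as deposited and -0.01 after scaling, and the dotted line marks no difference.

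The genes with the largest rises were nearly silent at E12.5 and abundant at P14. Kl encodes Klotho, a membrane protein that serves as a coreceptor for fibroblast growth factors and is also shed into cerebrospinal fluid. It was at 1.04, 1.14 and 1.66 TPM at E12.5 and at 534, 453 and 454 TPM at P14, a 375-fold rise (log2 difference 7.73 with SE 0.13, adjusted p = 1.85e-07, and 8.36 after scaling). The next was Ppp1r1b, the gene of the phosphatase inhibitor DARPP-32, from 1.53, 2.16 and 2.16 TPM to 430, 412 and 419 TPM (216-fold, adjusted p = 1.69e-07). Prlr, the prolactin receptor gene, went from 0.849, 0.604 and 0.552 TPM to 156, 122 and 127 TPM (202-fold, adjusted p = 3.45e-07). No overlap of libraries was a condition for naming these genes, so their separation is no added result. Enpp2, which encodes the secreted lysophospholipase autotaxin, started from a high level, 262, 322 and 441 TPM, and reached 24038, 21280 and 22263 TPM (66.0-fold, adjusted p = 6.79e-07).

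Several of the other large rises concern metal, stress and matrix proteins. Mt3, a metallothionein gene, rose from 6.30 ± 1.91 to 387 ± 32.4 TPM (SD, n = 3 at each age, here and below), and Cryab, a small heat shock protein gene, from 6.66 ± 0.279 to 245 ± 6.28 TPM. Mgp, encoding an inhibitor of matrix calcification, rose from 5.65 ± 1.75 to 357 ± 56.0 TPM. The calmodulin-binding protein gene Pcp4 rose from 4.81 ± 2.85 to 234 ± 17.1 TPM and Prcd, known for its protein in photoreceptor discs, from 0.613 ± 0.451 to 58.3 ± 5.56 TPM. Ptgds, the gene of the prostaglandin D synthase found in cerebrospinal fluid, was uneven at P14 at 498, 586 and 994 TPM, against 11.6, 26.0 and 26.0 TPM at E12.5. Igkj3, a joining segment of the immunoglobulin kappa locus, was listed at 0 in all E12.5 libraries and at 118, 83.0 and 136 TPM at P14. The segment is only 38 bases long, and its neighbour Igkc, the constant region, reached 9.62 ± 1.90 TPM from 0.209 ± 0.0331 TPM.

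Embryonic globin genes led the falls. Hbb-y went from 28816, 19988 and 25531 TPM to 5.43, 4.24 and 4.65 TPM (log2 difference -12.06, adjusted p = 8.93e-08), and the log2 differences of Hba-x and Hbb-bh1 were -11.54 and -11.15. These are the beta-like and alpha-like chains of primitive red cells, the first blood cells of the embryo. H19, an imprinted noncoding RNA gene, was at 1273, 1492 and 1214 TPM at E12.5 and at 9.46, 13.1 and 14 TPM at P14 (log2 difference -6.66, adjusted p = 3.63e-07). Hsd3b6, a steroid dehydrogenase gene, fell from 64.3, 91.1 and 94.7 TPM to values listed at 0.0271, 0 and 0 TPM. Hmga2, encoding a chromatin protein of embryonic growth, fell from 84.4, 74.5 and 63.7 TPM to at most 0.130 TPM. Vcan, the gene of the matrix proteoglycan versican, fell from 93.7, 134 and 124 TPM to 0.766, 0.826 and 0.856 TPM.

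**Figure D2:**
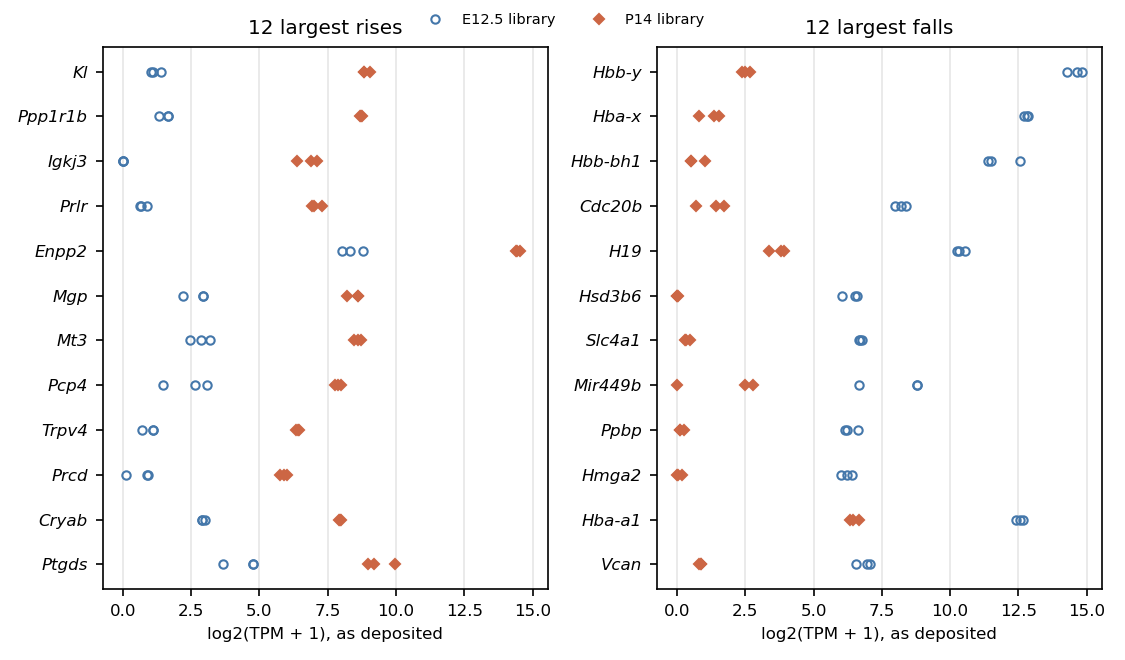
Level of the 12 genes with the largest rise (left) and the largest fall (right) in each of the 3 E12.5 libraries (open circles) and 3 P14 libraries (filled diamonds), as log2(TPM + 1) as deposited. Genes were picked only among those whose libraries of the ages do not overlap, so the separation follows from the choice. Kl was at most at 1.66 TPM at E12.5 and at least at 453 TPM at P14.

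The list of epithelial genes of the choroid plexus moved upward nearly as a block. Of 35 members 27 rose and 1 fell, against 12.6% and 34.0% of all tested genes, and 34 were called higher with scaling. The median log2 difference was 2.90 as deposited and 3.72 after scaling, beside -0.73 and -0.01 over all genes. The members were chosen as genes of the mature epithelium, so their direction is no independent result. Ttr rose 10.5-fold (log2 difference 3.44, adjusted p = 1.75e-05, and 4.27 after scaling). Folr1, the folate receptor that carries folate into cerebrospinal fluid, was at 217, 244 and 324 TPM and then 1319, 1336 and 1416 TPM, up by 2.39 on the log2 scale (adjusted p = 8.42e-06). The 1 member that fell was Lmx1a, a transcription factor gene of the roof plate, from 75.9 to 27.6 TPM. Otx2, needed to form and keep the tissue, was not called as deposited, at 356, 481 and 553 TPM and then 395, 383 and 382 TPM (log2 difference -0.24, adjusted p = 0.209). Scaling moved its difference to 0.60 (adjusted p = 0.00110), so its direction rests on the scale. Without E12.5 replicate 1 it was called lower as deposited (-0.41, adjusted p = 0.00514).

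Ion and water transport makes cerebrospinal fluid: the sodium pump and its partners drive salt across the apical membrane, and water follows through Aqp1. In this list 21 of 39 members rose and 5 fell, against 12.6% and 34.0% of all tested genes. The median was 0.76, or 1.59 with scaling. Atp1b1, a sodium pump subunit gene, rose from 45.3 ± 14.8 to 571 ± 43.9 TPM, and the pump regulator gene Fxyd1 from 66.2 ± 17.4 to 1040 ± 75.5 TPM. The calcium-permeable channel gene Trpv4 rose from 0.616, 1.15 and 1.16 TPM to 84.1, 79.6 and 85.8 TPM, the potassium channel gene Kcnk1 from 4.32 ± 0.618 to 151 ± 8.33 TPM, while Atp2b3, a pump that expels calcium, rose from 12.7 ± 7.91 to 252 ± 14.7 TPM. Aqp1 itself was spread widely at E12.5, at 103, 178 and 285 TPM, and lay at 290, 282 and 316 TPM at P14. The library ranges overlapped, and Aqp1 was not called as deposited (log2 difference 0.76, adjusted p = 0.0635) but was with scaling (1.59, adjusted p = 0.00140). Without E12.5 replicate 3, its highest embryonic library, the difference as deposited was 1.12 (adjusted p = 0.00465). At birth it had stood at 654 ± 8.10 TPM. The members that fell, chosen after their values were seen, included the potassium-chloride cotransporter gene Slc12a7, the carbonic anhydrase gene Car4, the potassium channel gene Kcna3 and the calcium pump gene Atp2b4. Atp2b4 went from 28.8 to 10.9 TPM while its paralog Atp2b3 rose.

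Organic solute transporters rose in 27 of 40 cases and fell in 5 (median 1.08, with scaling 1.90). Slc5a5, the sodium iodide symporter gene, was all but absent at E12.5 at 0.0458, 0.0665 and 0.0901 TPM, and lay at 15.9, 12.8 and 15.2 TPM at P14. Slco1a4, an organic anion transporter gene, rose from 6.77 ± 3.65 to 141 ± 14.5 TPM, the sulfate transporter gene Slc13a4 from 15.2 ± 6.16 to 209 ± 16.8 TPM, and the lactate transporter gene Slc16a8 from 0.369 ± 0.365 to 17.7 ± 2.49 TPM. Amino acid carriers moved in both directions. Slc6a20a, which carries proline and other imino acids, rose from 0.519, 1.51 and 1.12 TPM to 33.3, 32.7 and 36.4 TPM. Slc6a15 fell from 435 to 78.3 TPM, Slc7a5 from 14.4 to 3.53 TPM, Slc38a2 from 66.8 to 22.3 TPM and the taurine transporter gene Slc6a6 from 34.5 to 3.64 TPM. Slc39a8, which imports zinc and manganese, fell from 28.7 ± 2.89 to 0.957 ± 0.365 TPM. The ABC transporters, which pump drugs and lipids, were divided. Of 26 members 10 rose and 7 fell, against 12.6% and 34.0% of all tested genes. Abcc4 rose from 3.43 ± 0.415 to 17.9 ± 1.92 TPM, and Abcg2, an efflux pump gene of vessels and stem cells, fell from 56.3 ± 3.32 to 9.18 ± 0.823 TPM.

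Hormone and retinoid handling changed partner by partner, with 9 of 25 members rising and 10 falling, against 12.6% and 34.0% of all tested genes. Next to Ttr, the retinol dehydrogenase gene Rdh5 rose from 14.9 ± 2.82 to 88.4 ± 14.6 TPM. The retinoic acid-binding protein genes went the other way. Crabp2 fell from 146, 140 and 125 TPM to 1.51, 2.50 and 5.81 TPM, and Crabp1 from 40.5 ± 12 to 0.0421 ± 0.0384 TPM. Crym, encoding a binding protein of thyroid hormone in the cytosol, fell from 37.0 ± 8 to 0.590 ± 0.0253 TPM. The list thus holds a retinol dehydrogenase gene that rose and retinoic acid-binding genes that fell.

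Enzymes that conjugate or detoxify gave 18 of 44 members that rose and 7 that fell. Ephx1, the microsomal epoxide hydrolase gene, rose from 5.56, 7.27 and 6.56 TPM to 218, 204 and 212 TPM (32.7-fold, adjusted p = 3.63e-07). Sult1a1, a sulfotransferase gene, rose from 1.53 ± 0.806 to 52.0 ± 2.64 TPM, and Sod3, the extracellular superoxide dismutase gene, from 1.35 ± 0.404 to 40.1 ± 3.68 TPM. Hmox1, which degrades heme, fell from 42.7 ± 11.4 to 4.57 ± 0.431 TPM. The erythroid transcripts described below fell with it, and their part in the fall of Hmox1 was not tested.

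Of 24 tight junction members 10 rose and 4 fell, against 12.6% and 34.0% of all tested genes, at a median of 0.12 (0.86 with scaling). Cldn2, a channel-forming claudin gene of the epithelium, rose from 34.6, 37.0 and 37.5 TPM to 289, 265 and 281 TPM (adjusted p = 5.43e-07). Cgnl1 rose from 35.8 ± 4.55 to 153 ± 9.94 TPM. Cldn5, the claudin gene of vessels, fell from 18.0 ± 1.88 to 1.95 ± 0.447 TPM, and Tjp1 from 72.3 ± 11.3 to 24.2 ± 1.77 TPM. Among 16 cadherins and catenins 9 fell and 1 rose. The 1 that rose was Cdh3, the gene of P-cadherin, from 13 to 37.8 TPM, while Cdh2, the gene of N-cadherin, fell from 72.1 ± 16.5 to 8.62 ± 0.397 TPM. In the intermediate filaments, 7 of 17 fell and 3 rose. Nes, Vim and Lmnb1 fell from 59.4 ± 7.03, 999 ± 175 and 112 ± 5.92 TPM to 1.87 ± 0.0615, 87.3 ± 5.71 and 9.04 ± 0.615 TPM, and Nefh, a neurofilament gene, rose from 0.142, 0.221 and 0.259 TPM to 32.5, 24.6 and 29.2 TPM. Nefm, of the same filament family, fell from 13.1 ± 8.05 to 1.12 ± 0.782 TPM.

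Genes of respiration rose in number. Of 79 nuclear-encoded oxidative phosphorylation genes 54 rose and none fell on both scales, against 12.6% and 34.0% of all tested genes, with 78 higher and 0 lower under scaling, and the median was 0.43, or 1.26 with scaling. The size was modest for most members. Ndufa1 of complex I rose from 234, 223 and 288 TPM to 648, 639 and 707 TPM, Atp5g1 of the ATP synthase from 114 ± 9.37 to 449 ± 34.5 TPM, and Atp5j from 297 ± 30.5 to 706 ± 17.4 TPM. Cox8b and Cox7a1, cytochrome c oxidase isoforms best known from muscle and brown fat, rose from 0.263 ± 0.456 and 6.58 ± 1.5 TPM to 20.3 ± 4.33 and 26.5 ± 3.51 TPM. Of the 13 mitochondrially encoded genes 11 rose, among them mt-Nd2 from 5553, 8973 and 6297 TPM to 22757, 24172 and 20890 TPM. For the mitochondrial ribosome the direction depended on the scale. Only 3 of its 67 members rose and 6 fell, and 14 were called in opposite directions on the scales. As deposited 46 were called lower, against 63.2% of all tested genes. With scaling 34 were called higher and 6 lower, against 33.8% and 34.0% of all tested genes. Its median was -0.54 as deposited and 0.26 after scaling. Mrps22 fell from 49.4 ± 6.30 to 17.5 ± 0.991 TPM.

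Genes of fuel use followed. Fatty acid oxidation genes rose in 18 of 31 cases and fell in 1, with Ppargc1a, the coactivator gene of mitochondrial growth, at 3.99, 7.80 and 6.96 TPM and then 23.3, 24.3 and 23.1 TPM. Oxct1, which starts ketone use, rose from 84.3 ± 8.60 to 171 ± 18.8 TPM. Glycolysis genes rose in 13 of 22 cases and fell in 3. Pfkp rose from 10.7, 15.4 and 13.9 TPM to 136, 133 and 147 TPM, Ldhb from 129 ± 19.2 to 717 ± 67.7 TPM and Hk1 from 31.6 ± 3.86 to 89.8 ± 7.75 TPM. Hk2 and Pfkfb3 fell, from 3.73 to 1.04 TPM and from 3.98 to 0.798 TPM, and Slc16a3, a lactate exporter gene, fell from 8.91 ± 2.32 to 0.0931 ± 0.0530 TPM. Ldha was not called as deposited, at 295 and 303 TPM. Cholesterol and fatty acid synthesis fell in 7 of 36 cases and rose in 4, against 34.0% and 12.6% of all tested genes. The members that rose included the desaturase genes Fads1, from 36.3 to 88.2 TPM, and Fads2, from 85.4 to 137 TPM.

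Lysosomal genes rose in 20 of 35 cases and fell in 1, Grn, from 51.4 to 20.5 TPM. Psap, the precursor of the saposins, rose from 210, 240 and 276 TPM to 1242, 1140 and 1193 TPM, and Lamp2 from 215 ± 29.4 to 560 ± 16.2 TPM. In the secretory pathway 10 of 40 rose and 4 fell. The translocon-associated genes Ssr2 and Ssr3 fell, from 192 ± 11.2 to 48.2 ± 2.30 TPM and from 272 ± 8.24 to 73.6 ± 2.20 TPM, whereas the chaperone cofactor gene Dnajb9 rose from 21.9 ± 4.55 to 65.1 ± 1.37 TPM. None of the 35 proteasome genes rose and 6 fell, at medians of -0.77 as deposited and 0.05 after scaling, both close to those of all genes.

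**Figure D3:**
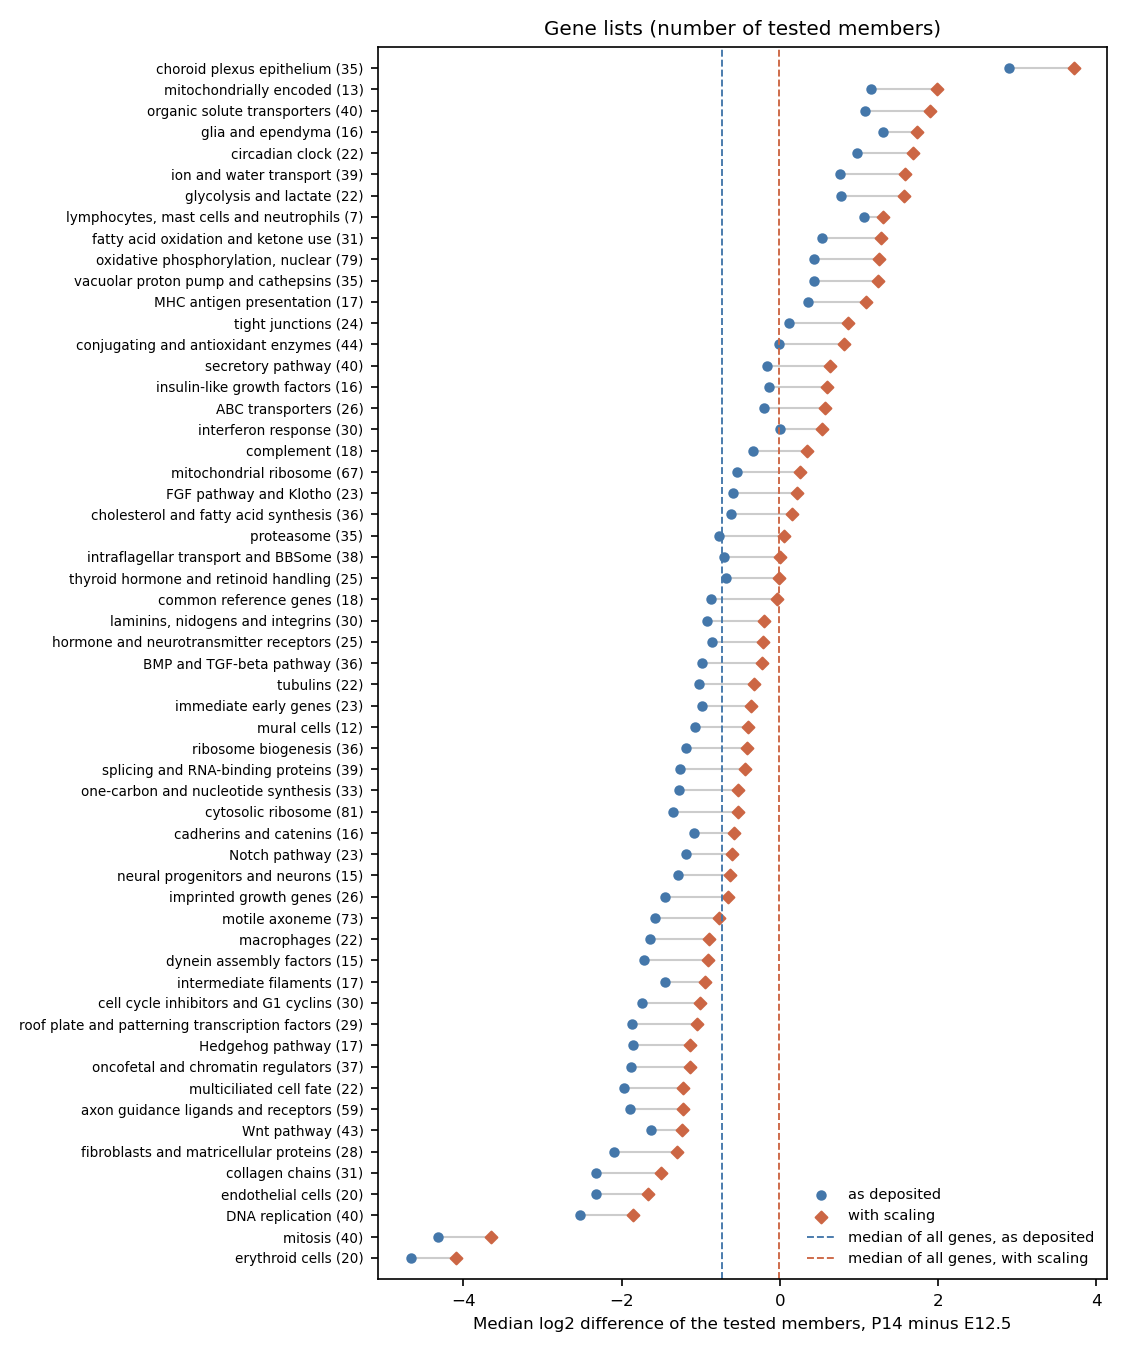
Median log2 difference (P14 minus E12.5) of the tested members of each of 57 gene lists, as deposited (circles) and with scaling (diamonds), ordered by the value with scaling; the number of tested members is in brackets. Dashed lines mark the medians of all tested genes, -0.73 and -0.01; the epithelial list (2.90 and 3.72) lies at the top and the mitosis (-4.32 and -3.65) and erythroid (-4.66 and -4.09) lists at the bottom.

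Cell division went down as a whole. In the mitosis list 39 of 40 members fell, and in the DNA replication list 39 of 40, against 34.0% of all tested genes. The medians were -4.32 and -2.53 as deposited and -3.65 and -1.86 after scaling. Top2a, the topoisomerase that untangles sister chromatids, went from 177, 182 and 185 TPM to 2.63, 3.69 and 3.32 TPM (56.5-fold lower, adjusted p = 3.45e-07). Mki67, the usual marker of cycling cells, went from 85.8, 101 and 80.7 TPM to 1.34, 1.84 and 1.57 TPM (log2 difference -5.12, adjusted p = 4.92e-07), and Ube2c, a ubiquitin carrier of the anaphase complex, from 108, 119 and 101 TPM to 0.647, 2.36 and 2.12 TPM. The members that did not fall, named after their values were seen, were Pttg1, at 76.7 and 82.1 TPM, and Rpa1, at 56.2 and 62.1 TPM. Neither was called as deposited, and both were called higher with scaling. Replication genes ended higher than mitosis genes: the summed TPM of the list went from 1361 to 1459 at E12.5 to 320 to 342 at P14, and that of mitosis from 2221 to 2436 down to 153 to 161. A large part of the mitosis sum at P14 was Pttg1, with its mean of 82.1 TPM. The helicase genes Mcm5, Mcm3 and Mcm2 fell from 38.2 ± 2.89, 39.4 ± 3.95 and 38.7 ± 1.81 TPM to 1.28 ± 0.161, 2.06 ± 0.614 and 3.11 ± 0.146 TPM.

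Genes of late cell cycle phases are known to carry a CCAAT box and a cell cycle homology region, here searched as TTTGAA, near their start, and replication genes to carry E2F sites, searched as TTTGGCGC and TTTCGCGC. These promoters are shown because their genes fell together. In the RefSeq table (GRCm38.p6, 300 bases from 250 before to 50 after each start), 32 of the 40 mitosis genes matched, with 34 windows. Searched on both strands, TTTGAA was found in 26 of 34 windows (76.5%), against 17.9% of all 32851 windows, and CCAAT in 26 of 34 (76.5%), against 37.4%. Both motifs were present in 67.6% of mitosis windows and 6.95% of all. In the 250 bases before the start alone, TTTGAA was in 12 of 34 windows (35.3%), against 16% of all, since the other matches lay at or after the start. For replication genes 13 of 38 windows of 300 bases (34.2%) held either E2F spelling, against 0.813% of all windows. In the 250 bases before the start alone, 7 of 38 (18.4%) did, against 0.654%. A match of letters is a description and not a measured binding site. The 250 bases before the start are given 5′ to 3′ for Cdk1 and Top2a, with matches to CCAAT and TTTGAA on either strand in capitals, and for Mcm6 with matches to the E2F spellings in capitals.
Cdk1 (chr10:69352913-69353162, minus strand): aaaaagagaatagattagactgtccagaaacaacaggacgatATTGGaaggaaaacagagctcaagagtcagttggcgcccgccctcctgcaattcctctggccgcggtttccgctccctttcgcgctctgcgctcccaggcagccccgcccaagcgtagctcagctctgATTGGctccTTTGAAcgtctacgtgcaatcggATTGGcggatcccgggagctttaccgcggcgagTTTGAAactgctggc
Top2a (chr11:99024190-99024439, minus strand): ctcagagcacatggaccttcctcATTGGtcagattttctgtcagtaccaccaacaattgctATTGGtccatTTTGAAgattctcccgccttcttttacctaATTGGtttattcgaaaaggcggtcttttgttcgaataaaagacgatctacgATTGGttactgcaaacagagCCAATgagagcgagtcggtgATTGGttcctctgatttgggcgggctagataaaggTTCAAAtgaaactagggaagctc
Mcm6 (chr1:128359706-128359955, minus strand): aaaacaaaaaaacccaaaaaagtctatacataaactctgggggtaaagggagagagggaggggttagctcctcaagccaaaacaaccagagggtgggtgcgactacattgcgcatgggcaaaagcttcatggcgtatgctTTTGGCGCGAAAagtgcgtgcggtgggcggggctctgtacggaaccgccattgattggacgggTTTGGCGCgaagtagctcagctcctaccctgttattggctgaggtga

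Growth machinery fell along with division. All but 2 of the 81 cytosolic ribosome genes were lower as deposited (79, against 63.2% of all genes), and 52 of 81 fell on both scales, while Rpl5 rose, from 77.4 to 105 TPM. Rpsa went from 1056, 1096 and 919 TPM to 193, 197 and 212 TPM. The summed TPM of these genes went from 69576 to 76423 at E12.5 to 28106 to 31855 at P14. Many ribosomal genes have processed copies elsewhere in the genome, among which the authors' counting may divide reads. Of 36 ribosome biogenesis genes 21 fell and 1 rose. The exception, Polr1a, the large subunit of RNA polymerase I, rose from 26.2, 32.2 and 25.4 TPM to 131, 121 and 122 TPM, whereas the nucleolar genes Nop58, Fbl and Npm1 fell from 204 ± 16.3, 77.1 ± 2.83 and 1114 ± 156 TPM to 49.7 ± 4.85, 23.3 ± 1.93 and 355 ± 4.93 TPM. Splicing and RNA-binding proteins fell in 27 of 39 cases and rose in none. Hnrnpa1 fell from 955, 976 and 1073 TPM to 219, 200 and 219 TPM. In folate cycle and nucleotide synthesis 18 of 33 fell, led by the ribonucleotide reductase gene Rrm2, from 61.5 ± 1.64 to 1.87 ± 0.527 TPM. The 2 that rose were Aldh1l1, from 2.34 ± 0.536 to 31.7 ± 2.10 TPM, and Mthfd1, from 17.7 to 45.1 TPM.

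Oncofetal and chromatin regulators fell in 32 of 37 cases, with the RNA-binding protein gene Igf2bp3 at 52.8, 55.2 and 54.8 TPM and then 0.370, 0.213 and 0.194 TPM (210-fold lower, adjusted p = 3.45e-07). The 1 member that rose was Cbx7, a Polycomb gene, from 1.13 to 6.54 TPM. Of 26 imprinted growth genes 17 fell and 3 rose. Beside H19, Gpc3 fell from 357, 451 and 493 TPM to 15.8, 14 and 16.3 TPM, Grb10 from 412 ± 30.1 to 49.1 ± 1.97 TPM and Peg10 from 98.1 ± 9.05 to 4.33 ± 0.194 TPM. Igf2 shares its domain with H19 but did not follow it, at 1096, 1062 and 1081 TPM and then 1182, 1027 and 1014 TPM (log2 difference -0.01, adjusted p = 0.926, and 0.82 after scaling, adjusted p = 0.00112). Its E12.5 libraries lay within the range of the P14 libraries. Igfbp2, whose protein binds this growth factor, rose from 1053, 1046 and 1112 TPM to 2393, 2339 and 2483 TPM, and Igfbp4 fell from 185 ± 13.3 to 44.3 ± 8.67 TPM.

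Most genes of the program that makes multiciliated cells fell, some of them to near 1 TPM or below. Of its 22 fate and centriole genes 17 fell and none rose, with a median of -1.97, or -1.22 with scaling, and their summed TPM went from 1323 to 1546 at E12.5 to 299 to 305 at P14. Mcidas, a coactivator that starts the program, was at 39.9, 32.3 and 38.8 TPM and then 0.498, 0.541 and 0.753 TPM, and Deup1, which builds the deuterosomes where centrioles multiply, at 121, 112 and 129 TPM and then 3.16, 3.74 and 4.33 TPM (adjusted p = 6.29e-07 and 4.92e-07). The centriole genes Stil and Plk4 fell from 37.7 ± 6.59 and 72.7 ± 10.5 TPM to 0.598 ± 0.0900 and 3.33 ± 0.465 TPM, but these also serve dividing cells. Gmnc, which acts above Mcidas, kept 59.3 to 66.5 TPM at P14 from 112, 116 and 154 TPM. It was lower as deposited (log2 difference -1.04, adjusted p = 3.09e-04) but not called with scaling (-0.21, adjusted p = 0.0948). Rfx3, a transcription factor gene of cilia, was not called as deposited, at 30.8 and 24.8 TPM.

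A stretch of chromosome 13 held several of the steepest falls. Within chr13:112987802-113091195 (GRCm38, GENCODE M21), a span of 103 kb, lie Ccno, Mcidas and Cdc20b in a row on the plus strand. Ccno went from 52.6, 40.9 and 48.1 TPM to 0.625, 0.832 and 1.04 TPM, and Cdc20b from 292, 255 and 335 TPM to 0.636, 2.28 and 1.73 TPM (190-fold lower, adjusted p = 1.15e-06). Between exons of Cdc20b lie the hairpins of the miR-449 family, which in airway cells is known to favour the multiciliated fate. Mir449b was at 446, 101 and 442 TPM and then 5.89, 0 and 4.58 TPM (log2 difference -6.33 with SE 0.84, adjusted p = 3.05e-04), with E12.5 replicate 2 well below its replicates. Mir449c, at 13.3, 36.3 and 43.4 TPM, and Mir449a, at 10.6, 4.07 and 10.5 TPM, were both listed at 0 in all P14 libraries. None of the 3 hairpins shares a base with an annotated Cdc20b exon. The kit was made for messenger RNA, so hairpin reads and reads from unspliced Cdc20b cannot be told apart, and no mature miRNA was measured. Mir34c, a relative on chromosome 9, was not called on either scale, at 11.6, 4.46 and 18.3 TPM and then 8.96, 14.5 and 4.71 TPM.

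The mature miRNAs are printed because they show what the family has in common. The seeds of miR-449a and miR-449c (bases 2 to 8, in capitals) are the same, and miR-34b has it too. These are RefSeq sequences (GRCm38.p6), 5′ to 3′.
mmu-miR-449a-5p (chr13:113037549-113037570, plus strand): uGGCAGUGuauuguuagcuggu
mmu-miR-449c-5p (chr13:113036008-113036028, plus strand): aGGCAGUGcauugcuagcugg
mmu-miR-34b-5p (chr9:51103610-51103632, minus strand): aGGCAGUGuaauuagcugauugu

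The neighbours of this stretch behaved otherwise. Gpx8, a peroxidase gene of the endoplasmic reticulum, lies inside the Cdc20b gene on the opposite strand, with no base in its exons. It rose from 151, 164 and 169 TPM to 356, 327 and 368 TPM (log2 difference 1.11, adjusted p = 2.69e-05, and 1.94 after scaling). Dhx29, the next gene before Ccno, was lower as deposited but not called with scaling (-0.97 and -0.19), at 24.1 ± 4.29 and then 11.7 ± 0.781 TPM. Gzma, the next gene after Cdc20b, was listed at 0 in all E12.5 libraries and at no more than 0.356 TPM at P14.

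Among genes for the cilium itself, most of the motile axoneme and of dynein assembly fell, but a minority of those for transport did. Of all tested genes 34.0% fell and 12.6% rose. Of 73 motile axoneme genes 50 fell and 1 rose, with a median of -1.58 (-0.77 with scaling). Of 15 dynein assembly factors 13 fell and none rose, with a median of -1.72 (-0.91). Among 38 genes of intraflagellar transport and the BBSome, which also serve the cilia of cells without tufts, 9 fell and none rose, while 10 were called in opposite directions. With scaling 16 of these 38 were called higher and 9 lower. Their median of -0.71, or 0.00 with scaling, was close to that of all genes. In the axoneme, Dnah7a, a dynein heavy chain gene, went from 53.2, 43.8 and 49.3 TPM to 2.31, 1.29 and 2.73 TPM, and Ccdc40, which sets the spacing of axonemal repeats, from 74.2, 109 and 112 TPM to 4.97, 5.81 and 5.35 TPM. Drc7, of the nexin-dynein regulatory complex, was the 1 member that rose, from 58.3 to 113 TPM. Zmynd10, an assembly factor gene, fell from 80.1 ± 12.7 to 10.6 ± 0.962 TPM. Transport genes fell less where they fell: Ift88 went from 59.4 ± 11.9 to 25.1 ± 1.26 TPM and Kif3a from 91.7 ± 17.4 to 38.6 ± 0.435 TPM. The summed TPM of the axoneme list remained at 1742 to 1836 at P14, from 4015 to 5774 at E12.5.

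**Figure D4:**
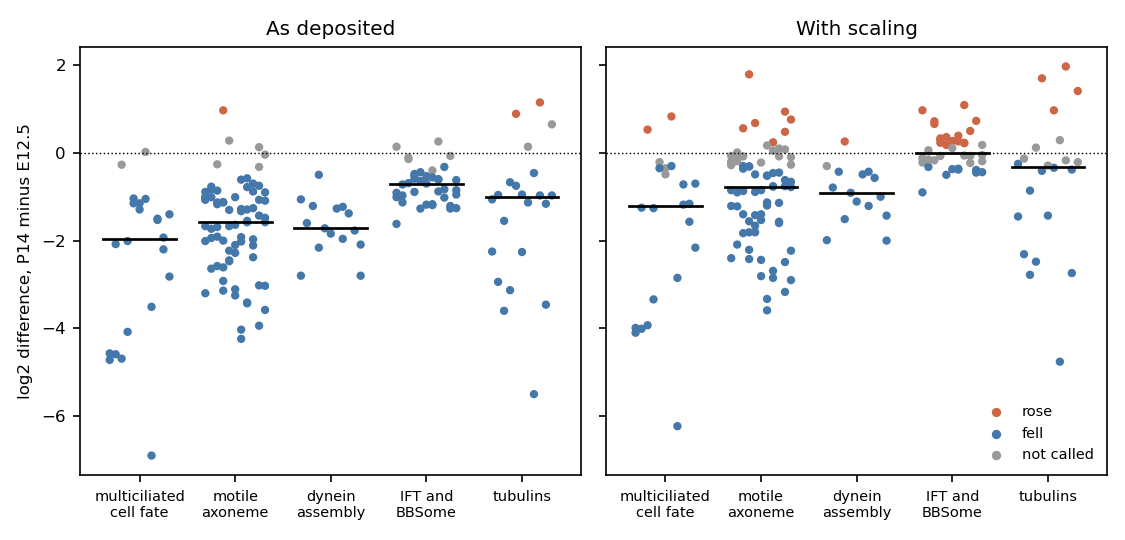
Log2 difference (P14 minus E12.5) of each tested member of 5 ciliary lists, as deposited (left) and with scaling (right). Points are genes, coloured by the limma call on that scale, and bars are list medians, from -1.97 (fate), -1.58 (axoneme) and -1.72 (dynein assembly) to -0.71 (IFT, intraflagellar transport, and BBSome) as deposited.

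Ciliary promoters are known for the X-box bound by RFX factors, searched here by its core GTTGCC. In the 250 bases before the start it was found in 20 of 71 windows (28.2%) of the motile axoneme list, 62 of whose 73 genes matched, against 10.4% of all windows of that length. Cfap44, an axoneme gene that fell, is shown with its matches in capitals. Oxidative phosphorylation genes, which moved the other way, are known for sites of NRF1, searched as GCGC, any 2 bases and GCGC. This was found in 15 of 70 windows (21.4%), 65 of 80 genes matching, against 4.98%. Atp5k, of the ATP synthase, is shown beside it. The OTX motif TAATCC was in 2 of 37 windows (5.41%) of the epithelial list and in 6.25% of all.
Cfap44 (chr16:44394549-44394798, plus strand): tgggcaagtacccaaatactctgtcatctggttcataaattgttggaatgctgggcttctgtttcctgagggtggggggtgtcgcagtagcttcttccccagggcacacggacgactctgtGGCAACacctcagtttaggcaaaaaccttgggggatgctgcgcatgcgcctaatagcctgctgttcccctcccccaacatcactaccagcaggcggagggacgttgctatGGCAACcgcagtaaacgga
Atp5k (chr5:108434400-108434649, minus strand): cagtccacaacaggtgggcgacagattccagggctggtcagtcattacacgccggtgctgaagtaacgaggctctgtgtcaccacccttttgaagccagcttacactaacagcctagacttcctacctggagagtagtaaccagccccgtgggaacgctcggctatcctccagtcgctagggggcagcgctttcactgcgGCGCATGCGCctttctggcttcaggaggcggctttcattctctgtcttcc

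Signalling pathways that pattern the embryo differed in how many members moved. Of all tested genes 34.0% fell and 12.6% rose. Of 17 Hedgehog genes 11 fell and none rose. Shh, the ligand that the hindbrain choroid plexus sends to its progenitors and vessels, went from 15.5, 20 and 23.7 TPM to 0.183, 0.0783 and 0.122 TPM (154-fold lower, adjusted p = 1.75e-06). The target gene Gli1 went from 18.3, 18.7 and 18.5 TPM to 0.0898, 0.107 and 0.193 TPM, while the receptor genes Ptch1 and Smo were not called on both scales (43.6 and 25.9 TPM, 45.2 and 28.0 TPM). In the Wnt list 27 of 43 fell and 7 rose. Wnt1, a roof plate ligand, was at 16.2, 21.3 and 13 TPM and then at most 0.0190 TPM, the enhancer Rspo1 went from 33.8 ± 8.68 to 0.184 ± 0.0368 TPM, and the antagonist Dkk2 from 61.4, 52.5 and 41.5 TPM to 0.166, 0.168 and 0.229 TPM. The antagonist Sfrp5 appeared, from 0, 0.0281 and 0 TPM to 12.7, 13.4 and 11.5 TPM. Notch genes fell in 12 of 23 cases, among them the ligand Jag1 from 22.2 ± 3.83 to 2.41 ± 0.189 TPM and the target Nrarp from 16.3 ± 2.38 to 1.47 ± 0.381 TPM. Dlk1, a noncanonical ligand that is also imprinted, was the 1 member that rose, from 30.6 to 66.4 TPM.

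The BMP and TGF-beta list was mixed, as 17 of 36 fell and 6 rose, against 34.0% and 12.6% of all tested genes. The antagonist Nog went from 23.9, 20.6 and 23.4 TPM to 0.976, 1.28 and 1.23 TPM, and another antagonist, Sostdc1, from 57.5, 88.1 and 108 TPM to 818, 822 and 861 TPM (9.88-fold, adjusted p = 8.42e-06). The ligands Tgfb1 and Tgfb2 moved apart. Tgfb1 fell from 20.3 ± 2.45 to 2.34 ± 0.473 TPM, and Tgfb2 rose from 6.46, 15.8 and 8.87 TPM to 110, 95.6 and 89.8 TPM. In the FGF list 5 of 23 rose and 5 fell: Fgf15 fell from 14.5, 21.2 and 15.5 TPM to at most 0.0277 TPM and Fgfr3 from 24.5 ± 4.51 to 4.22 ± 0.877 TPM, while Fgf1 and Fgf2 rose to only 3.35 and 4.00 TPM. Among hormone and neurotransmitter receptors 6 of 25 rose and 11 fell, against 12.6% and 34.0% of all tested genes. With Prlr rose the leptin receptor gene Lepr, from 16.8 ± 3.15 to 57.3 ± 2.01 TPM, and the serotonin receptor gene Htr2c, from 169 to 431 TPM.

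Axon guidance genes fell in 41 of 59 cases and rose in 3. Epha7 went from 62.8, 81.9 and 71.7 TPM to 2.21, 2.67 and 2.39 TPM and Efnb1 from 77.3 ± 8.48 to 4.33 ± 0.546 TPM. The members that rose were the secreted factors Sema3b, from 13.2 to 96.0 TPM, Ntn1, from 2.97 to 7.58 TPM, and Ntn4, from 6.13 to 10.5 TPM at E12.5 to 19.3 to 20.5 TPM at P14. Of 29 roof plate and patterning transcription factors 23 fell. Msx2 fell from 66.2 ± 14.6 to 4.73 ± 0.164 TPM and Lmx1b from 24.3 ± 2.49 to 3.22 ± 0.716 TPM, while Msx1 rose from 161 to 189 TPM. Hox genes of the hindbrain, such as Hoxb3 at 4.96, 14 and 8.15 TPM, were present in all E12.5 libraries and fell to at most 0.911 TPM.

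Markers of several cell types outside the epithelium fell too. All 20 endothelial genes fell, at a median of -2.32 (-1.67 with scaling), and their summed TPM went from 627 to 681 down to 119 to 165. Cdh5, the cadherin gene of vessels, went from 68.1, 80.8 and 75.6 TPM to 7.51, 5.58 and 6.25 TPM. In these bulk libraries fewer cells of a type and less RNA per cell cannot be told apart. Of 12 mural genes 5 fell and none rose, which is near the 34.0% of all tested genes that fell. With scaling 3 mural genes were called higher. Acta2 was uneven at E12.5 at 46.1, 81.6 and 19.9 TPM, and lay at 5.10 to 5.98 TPM at P14. Rgs5, a pericyte marker, overlapped between the ages at 47.3, 60.3 and 70.3 TPM and 83.7, 60.2 and 69.1 TPM.

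Mesenchymal genes changed in kind. Fibroblast and matricellular genes fell in 17 of 28 cases and rose in 5, and of 31 collagen chains 20 fell and 4 rose. Col1a1 went from 126, 193 and 137 TPM to 11.7, 7.29 and 9 TPM, Fbn2 from 67.4, 67.5 and 65.0 TPM to 0.203, 0.208 and 0.203 TPM, and Col2a1, best known from cartilage, from 78.0 ± 15.3 to 0.828 ± 0.132 TPM. The proteoglycan gene Dcn, used as a fibroblast marker, rose from 32.5, 50.0 and 49.1 TPM to 115, 108 and 134 TPM, and Pdgfra was at 54.8 ± 10.9 and 32.1 ± 2.12 TPM with no call on both scales. The collagen chains that rose were Col8a1, from 25.8 to 222 TPM, Col9a3, from 84.2 to 240 TPM, Col4a3, from 1.82 to 22.1 TPM, and Col4a4, from 1.77 to 10.5 TPM. The last 2 form 1 basement membrane network with each other. Among laminins and integrins, Lama1 fell from 12.3 ± 1.90 to 0.285 ± 0.00724 TPM and Agrn from 76.9 ± 2.91 to 7.08 ± 0.802 TPM, and Itgb8 rose from 9.29 ± 2.62 to 55.8 ± 3.12 TPM.

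Blood-borne cells and macrophages were more visible at E12.5. Of 20 erythroid genes 18 fell, and their summed TPM went from 56159 to 63219 down to 1204 to 1347. Slc4a1, the anion exchanger of red cells, fell from 104, 109 and 100 TPM to 0.258, 0.215 and 0.408 TPM. The adult globin genes Hba-a1 and Hba-a2 fell to 89.7 ± 10.7 and 282 ± 41.0 TPM. Their transcripts are nearly identical, so how reads were divided between them is uncertain. The 1 list member that rose was Car2, a carbonic anhydrase gene that the epithelium expresses as well, from 239 to 444 TPM. All 22 macrophage genes were lower as deposited and 18 fell on both scales. Mrc1 and Lyve1, of border macrophages, fell from 40.2 ± 5.26 and 12.6 ± 2.45 TPM to 5.92 ± 0.877 and 0.314 ± 0.124 TPM. Pf4, which platelets share, fell from 153 ± 40.0 to 7.29 ± 1.2 TPM, and the platelet gene Ppbp from 98.4, 73.1 and 69.4 TPM to at most 0.202 TPM.

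Of 28 lymphocyte, mast cell and neutrophil markers 7 passed the filter for testing, of which 3 rose and 2 fell. Ighm, the heavy chain constant region of IgM, fell from 6.61, 8.77 and 7.14 TPM to 2.05, 1.56 and 2.47 TPM, whereas Igkc and Igkj3 rose, as given above. Cd3e was listed at 0 in 5 of 6 libraries, and Cd79a was at no more than 0.303 TPM. The neutrophil gene S100a9 rose, but 1 library carried most of it: it was at 0.308, 0.245 and 0 TPM and then 2.00, 3.34 and 39.2 TPM (log2 difference 2.78, adjusted p = 0.0216). Without P14 replicate 3 the difference was 1.62, and without any 1 of the E12.5 libraries the call was lost, with adjusted p from 0.0503 to 0.0627. Neural transcripts differed between libraries of the same age. Tubb3, a neuronal tubulin gene, was at 7.54, 51.0 and 18.5 TPM at E12.5 and at 1.14, 2.52 and 0.727 TPM at P14, and the summed neural list ranged from 194 to 513 TPM at E12.5. Of 15 tested members of the neural list 5 fell and 2 rose, shares near the 34.0% and 12.6% of all tested genes. Fabp7, of radial glia, fell from 97.8, 213 and 163 TPM to 4.93, 20.8 and 6.86 TPM. Syt1, of the same list, rose from 0.653, 2.03 and 0.791 TPM to 13.3, 13.2 and 10.9 TPM. Snap25 overlapped between the ages, at 1.32, 6.70 and 3.52 TPM and then 3.97, 8.09 and 3.34 TPM. E12.5 replicate 2 and P14 replicate 2 were the highest of their ages for Tubb3 and Fabp7. In the list of glia and ependyma 9 of 16 rose and 3 fell, against 12.6% and 34.0% of all tested genes. Abundant members were among those that fell. Gja1 went from 80.8 to 124 TPM at E12.5 down to 8.08 to 15.1 TPM at P14. Slc1a3 went from 41.0 to 69.5 TPM down to 7.67 to 14.3 TPM. Gfap reached 4.76, 10.9 and 6.64 TPM from at most 0.561 TPM, and Olig2 was at no more than 0.325 TPM at either age. Mia, whose secreted protein is known from cartilage and melanoma, rose from 9.43 ± 3.94 to 219 ± 18.2 TPM. How far tissue next to the choroid plexus contributed to these values was not tested.

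In the complement list, whose proteins tag microbes and cells for removal, 7 of 18 rose (all tested genes: 12.6%) and 5 fell (34.0%). Regulators were among those that rose: Cd55 from 23, 21.2 and 24.5 TPM to 111, 108 and 111 TPM, Cd59a from 32.8 ± 0.764 to 113 ± 4.53 TPM and Clu from 160 ± 19.6 to 1725 ± 68.9 TPM. The initiator chains C1qb and C1qc, made by macrophages, fell from 28.0 ± 4.31 and 25.7 ± 5.42 TPM to 9.05 ± 0.540 and 8.62 ± 0.877 TPM, beside the fall of macrophage markers given above. Of 17 genes of MHC antigen presentation 8 rose, among them Tap2 from 1.24 ± 0.417 to 6.90 ± 1.2 TPM, and none fell on both scales. As deposited 2 members were called lower. The summed TPM of the whole list did not rise, at 396 to 456 at E12.5 and 366 to 391 at P14. Of 30 interferon-response genes 6 rose and 1 fell. Ifi27 went from 8.07, 8.33 and 9.80 TPM to 240, 182 and 235 TPM.

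Clock genes rose in 13 of 22 cases and fell in 2, against 12.6% and 34.0% of all tested genes. Their median was 0.98 (1.69 with scaling). The time of day of dissection is not given in the sources used here, and it cannot be told apart from age. Bhlhe40 went from 1.57, 1.76 and 0.972 TPM to 18.0, 15.0 and 17.4 TPM, and Dbp from 4.79 ± 1.06 to 25.1 ± 0.165 TPM. The members that fell were the kinase genes Csnk1e, from 66.1 ± 8.61 to 22.5 ± 1.33 TPM, and Csnk1d, from 112 to 51.1 TPM. Immediate early genes, which respond within minutes to handling as well as to growth factors, fell in 11 of 23 cases, with Klf6 at 41.3 ± 3.32 and then 4.95 ± 0.447 TPM and Jun at 17.5 ± 2.34 and then 3.15 ± 0.524 TPM. Only Ier3 rose, from 4.13 to 5.84 TPM.

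Of 18 genes often used as references 3 rose and 6 fell, shares near the 12.6% and 34.0% of all tested genes, at a median of -0.87 (-0.04 with scaling). Actb went from 1383, 1829 and 1500 TPM to 413, 390 and 392 TPM (log2 difference -1.97, adjusted p = 7.61e-06, and -1.13 after scaling), and Hprt rose from 93.3, 82.8 and 125 TPM to 225, 202 and 228 TPM. Fth1, Hspa8, Ppia and Ubb were among the most abundant genes called in opposite directions. Ppia, a common reference, was at 1381, 1437 and 1367 TPM and then 1039, 1051 and 1129 TPM, lower as deposited (-0.38, adjusted p = 0.00550) and higher with scaling (0.45, adjusted p = 0.0138). Of genes like these the data do not fix a direction.

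Birth and adulthood place some of these changes in time, given as values without a test. Ttr was at 141944 ± 1066 TPM at P0 and 141048 TPM at A6m, so that most of its climb lay before birth. Prlr was still at 2.00 ± 0.551 TPM at P0 and went on from P14 to 536 TPM at A6m, and Kl went from 52.2 ± 3.54 TPM at P0 to 866 TPM at A6m. Nefh and Cox8b were at only 0.420 and 0.223 TPM at P0. Hsd3b6 was at 0.0166 ± 0.0287 TPM at P0 already, and Gpc3 at 476 TPM, above its mean at E12.5 of 434 ± 69.8 TPM. Ccno was at 4.69 and Cdc20b at 32.8 ± 5.37 TPM at P0. Gpx8 was at 324 to 360 TPM at P0, near its P14 level, and at 204 to 212 TPM at A6m.

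**Figure D5:**
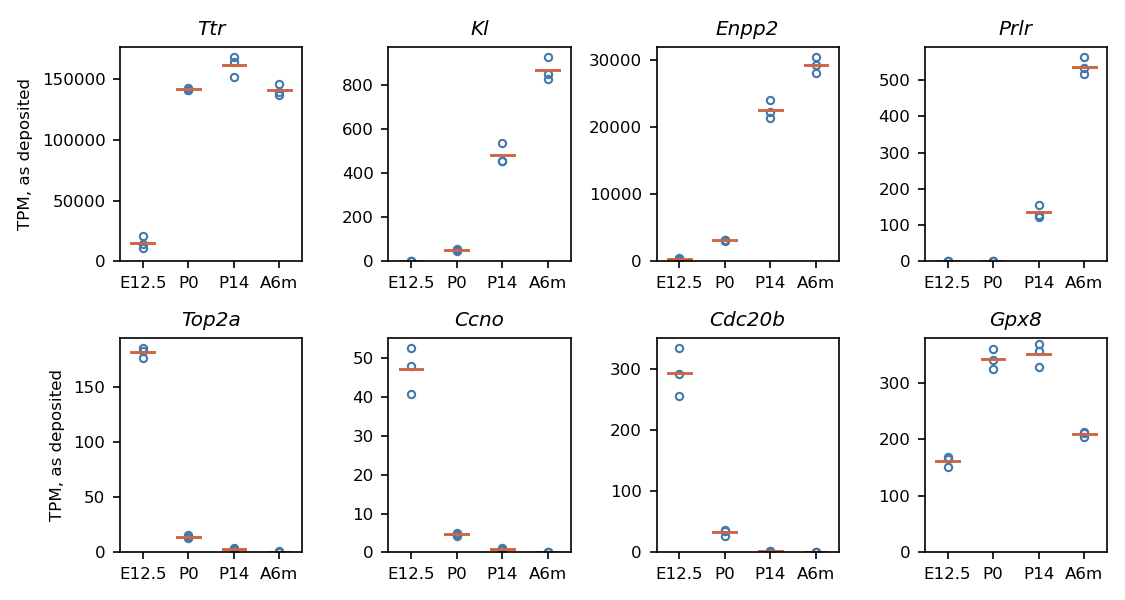
Deposited TPM of 8 genes in the 12 libraries of 4 ages (circles, 3 libraries per age; bars, means; each vertical axis starts at 0). Ttr was already high at P0 (141944 ± 1066 TPM) whereas Prlr was at 2.00 ± 0.551 TPM there; Top2a, Ccno and Cdc20b had dropped by P0, and Gpx8 was higher at P0 and P14 than at E12.5.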

How the data were processed

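RNA-seq libraries of choroid plexus, 3 at E12.5 and 3 at P14, were compared. The authors deposited TPM values per gene symbol, made with kallisto on GRCm38 per the submitters' processing notes, with no version. The annotation used and how transcripts were summed to genes are not given in the sources used here. TPM keeps no counts, so depth is unknown, no counting interval or count model was used, and a 0 is given as listed at 0. Of 19 table columns 12 were mapped to labelled ages and 7 were not used.

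Genes with at least 1 TPM in at least 3 of 6 libraries were tested with limma 3.58.1 (R 4.3.3, eBayes with trend) on log2(TPM + 1), which understates changes of low genes. A gene was called when its p, adjusted by Benjamini-Hochberg over all 16243 genes, was under 0.05. Every adjusted p is from limma, as deposited unless scaling is named. Scaling divided each library by its median ratio to the geometric means of the 20397 genes above 0 in all 6 libraries. Folds are ratios of mean TPM. Of the tested symbols 97.1% were found in GENCODE M21, and 93 had values identical to another symbol.

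Named genes were called in the same direction on both scales with no overlap of libraries: the 12 largest rises and 12 largest falls (mean of at least 20 TPM at the higher age; gene models, pseudogenes and mitochondrial genes left out), up to 6 members per list (at least 5 TPM), the 5 most abundant genes called in opposite directions, and 8 genes fixed by name (Gmnc, Otx2, Shh, Igf2, Mki67, Folr1, Aqp1, Ttr). A part is printed, and some items are not reported here. Exceptions within lists, marker genes, the neighbours of Cdc20b, the motifs and the promoters were chosen after values were seen. The members and the 57 lists were chosen with earlier results of these data known, so no list has a test. Promoter and miRNA sequences are from RefSeq (GRCm38.p6). The fitting was tested on simulated data. Alternatives were other scalings, pseudocounts and filters, all 12 libraries, array weights, a replicate block, no X or Y genes, a 1.5-fold minimum, and leaving out each library. Figures used Python 3.11.15 and matplotlib 3.10.9.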

Additional observations from a re-analysis of the deposited data

How the results depend on the processing

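The scale set how many genes were called in each direction. Against 2048 genes higher and 10267 lower as deposited, there were 5490 and 5528 with scaling, 5251 and 5755 with quantile normalization, 3672 and 7366 without the 10 most abundant genes, and 3632 and 6491 without mitochondrially encoded genes, globin genes and Ttr. Against a 1.5-fold minimum 7237 genes were called, 1051 higher and 6186 lower. Leaving out 1 library at a time gave 1753 to 2211 higher and 9485 to 10927 lower. No filter gave 2189 and 11688 of 32823 genes. Rescaling without the set of small RNA and ribosomal RNA features gave 1965 higher and 11002 lower of 15635 genes.

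The directions of some named genes turned. Under scaling, quantile normalization, and without the 10 most abundant or the mitochondrial, globin and Ttr genes, in this order, Fth1 was at 0.54, 0.32, 0.21 and 0.27, Hspa8 at 0.41, 0.17, 0.08 and 0.15, Igf2 at 0.82, 0.64, 0.49 and 0.56, Otx2 at 0.60, 0.19, 0.26 and 0.33, Ppia at 0.45, 0.24, 0.12 and 0.19, and Ubb at 0.42, 0.22, 0.09 and 0.15. The difference of mt-Atp6 turned under quantile normalization, at -0.20. Igf2 was at 0.00 with array weights and between -0.08 and 0.03 when 1 library was left out. The cause was not tested. Fth1 and Hspa8 also lost their calls as deposited without any 1 of the P14 libraries or without E12.5 replicate 3, and Fth1 also without E12.5 replicate 2.

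Replicate numbers did not pair the libraries: deviations of same-numbered libraries correlated at 0.0391, 0.149 and 0.0422. A replicate block gave 12124 calls, 1999 higher and 10125 lower. Depth is unknown from TPM, so values near 0 carry no stated precision.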
